A study of Mus musculus with 6 samples.

Results

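The circadian clock genes described here are Nr1d1, Nr1d2, Per1, Per2, Per3, Cry1, Cry2, Arntl, Clock and Dbp, which cover the activators, the repressors and an output factor of the molecular clock. They are 10 of 24980 gene symbols in the table, and each symbol matched 1 row. The genes were selected on their function, by symbol, but they were proposed with the KO against WT values of these 6 libraries already known, so those values are given below as a description and carry no test. Of the 10, 9 passed the filter on low values, which kept 8971 genes with at least 1 TPM in at least 3 of the 6 libraries. Per3 did not pass. TPM is a transcript level scaled for transcript length and library total, so levels of different genes can be set side by side.

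Satellite cells, the stem cells of skeletal muscle, were sorted by flow cytometry from the hindlimbs of C57BL6/J mice labelled adult, and their RNA was sequenced. The scERα KO group has 3 libraries and the scERα WT group 3; ERα is estrogen receptor α, the product of Esr1, and Cre was induced with tamoxifen. Mice of both groups had received tamoxifen, 10 mg in total. The promoter that drives Cre, the sex of the mice, the time of day of collection and whether each library comes from its own mouse were not stated, so p-values measure only the spread between these libraries, which may be technical. The comparison of KO with WT asks what loss of the receptor gene does to the satellite cell transcriptome. Esr1 held 2.92, 3.69 and 3.87 TPM in KO libraries 1, 2 and 3, against 7.53, 6.96 and 6.94 TPM in WT libraries 1, 2 and 3, so every library lay on the side of its label. The KO mean was 48.9% of the WT mean (limma log2 difference -0.86, SE 0.13, adjusted p = 0.0925; exact two-sided permutation p = 0.1, the smallest that 3 against 3 can give).

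The mammalian clock is a feedback loop of transcription. CLOCK and BMAL1, the product of Arntl, bind E-box sequences as a pair and switch on the Per and Cry genes, whose proteins come back to inhibit the pair, and also Nr1d1 and Nr1d2, whose proteins REV-ERBα and REV-ERBβ repress Arntl. The loop runs in most tissues, skeletal muscle included, and in mouse tissues Nr1d1 and Dbp transcripts peak at a time of day when Arntl is low. A single collection samples 1 point of each rhythm.

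The sorted libraries held satellite cell transcripts, with 8 of 8 markers above 0 and a summed level of 373 to 500 TPM in KO libraries and 348 to 473 TPM in WT libraries. Pax7, the defining factor of these cells, held 17.9, 32.81 and 29.46 TPM in KO and 23.02, 25.36 and 23.3 TPM in WT. Transcripts listed as markers of other cells were present too. Fibro-adipogenic progenitor markers summed to 102 to 131 TPM in KO and 61.2 to 162 TPM in WT. That sum came mostly from Col3a1 and Dpt, while Pdgfra held at most 0.2 TPM in KO and 0.31 TPM in WT. Endothelial markers summed to 10.6 to 20.3 TPM in KO and 10.6 to 15.8 TPM in WT. Tek was the most abundant of them, and Kdr, Emcn and Cldn5 were below the filter. Mural cell markers summed to 17.5 to 33.7 TPM in KO and 18.8 to 22.8 TPM in WT. Schwann cell markers summed to 4.46 to 13.3 TPM in KO and 2.78 to 4.97 TPM in WT, and leukocyte markers to 2.13 to 3.53 TPM in KO and 1.72 to 3.02 TPM in WT. Mature fibre markers summed to 6.37 to 32.1 TPM in KO and 9.17 to 22.1 TPM in WT, and erythroid markers to 38.4 to 437 TPM in KO and 18.2 to 215 TPM in WT. None of these lists separated KO from WT in its summed level, and no listed marker was at 0 in all 6 libraries. Their part in the clock gene values was not tested. The median log2 difference over all genes tested was 0.12, so KO libraries lay slightly above WT libraries across the table. After median-of-ratios scaling, which sets the median gene level between libraries, it was 0.01.

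Nr1d1 encodes REV-ERBα, a heme-binding nuclear receptor that acts as a repressor. The gene lies on chromosome 11 at 98767932 to 98775333 (GRCm38, minus strand). The RefSeq window before its start site is shown because Nr1d1 had the largest log2 difference of the clock genes. The 250 bases at chr11:98775378-98775627 (GRCm38.p6, minus strand, 5′ to 3′) hold 1 E-prime box, CACGTT read on the other strand, in capitals, 28 bases before the start site.
Nr1d1: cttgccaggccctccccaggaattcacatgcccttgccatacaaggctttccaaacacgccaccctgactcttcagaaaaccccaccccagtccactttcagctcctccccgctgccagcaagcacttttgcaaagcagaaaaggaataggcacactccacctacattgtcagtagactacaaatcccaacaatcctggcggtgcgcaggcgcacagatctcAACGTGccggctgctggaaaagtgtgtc

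Nr1d1 held 9.27, 11.01 and 8.95 TPM in KO libraries 1, 2 and 3, against 5.14, 5.35 and 5.57 TPM in WT libraries 1, 2 and 3. Every KO library lay well above every WT library, and the WT values were tightly grouped. The means were 9.74 ± 1.11 TPM in KO and 5.35 ± 0.215 TPM in WT (SD, n = 3 each), a ratio of 1.82, and the log2 difference on log2(TPM + 1) was 0.75 (SE 0.13). With the 8971 genes tested ordered from the most positive log2 difference to the most negative, it ranked 154. After median-of-ratios scaling the levels were 9.19 ± 0.559 in KO and 5.65 ± 0.659 in WT (SD, n = 3 each), a ratio of 1.63, still without overlap. Leaving out any single library gave log2 differences between 0.67 and 0.81. Whether fewer cells that express a gene or less RNA per cell underlies a lower level cannot be told apart in bulk libraries.

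The 3′ end of Nr1d1 overlaps that of Thra, the thyroid hormone receptor α gene on the opposite strand, and 263 of the 3077 exonic bases of Nr1d1 (8.5%) are shared. Use of strand was not stated, so reads from the shared bases cannot be told apart. Thra held 14.9, 14.61 and 18.16 TPM in KO and 12.02, 12.46 and 14.22 TPM in WT, with a log2 difference of 0.28 (SE 0.14; limma adjusted p = 0.532). For Thra too every KO library lay above every WT library, by 14.61 against 14.22 TPM. The order of libraries differed between the 2 genes, with KO library 2 highest for Nr1d1 and lowest of the KO libraries for Thra. The ratio of Nr1d1 to Thra was 0.62, 0.75 and 0.49 in KO and 0.43, 0.43 and 0.39 in WT.

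Nr1d2, which encodes the paralog REV-ERBβ (chromosome 14, 18204054 to 18239127, minus strand), held 7.69, 9.23 and 6.59 TPM in KO libraries and 5.04, 7.28 and 3.93 TPM in WT libraries. WT library 2 lay within the KO range, so the groups overlapped. The means were 7.84 ± 1.33 TPM in KO and 5.42 ± 1.71 TPM in WT (SD, n = 3 each), with a log2 difference of 0.48 (SE 0.21). Without WT library 3 the difference was 0.31, and the values without another single library were 0.37 to 0.68. The ratio of Nr1d1 to Nr1d2 was 1.25 ± 0.092 in KO and 1.06 ± 0.343 in WT (SD, n = 3 each) and overlapped.

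**Figure D1:**
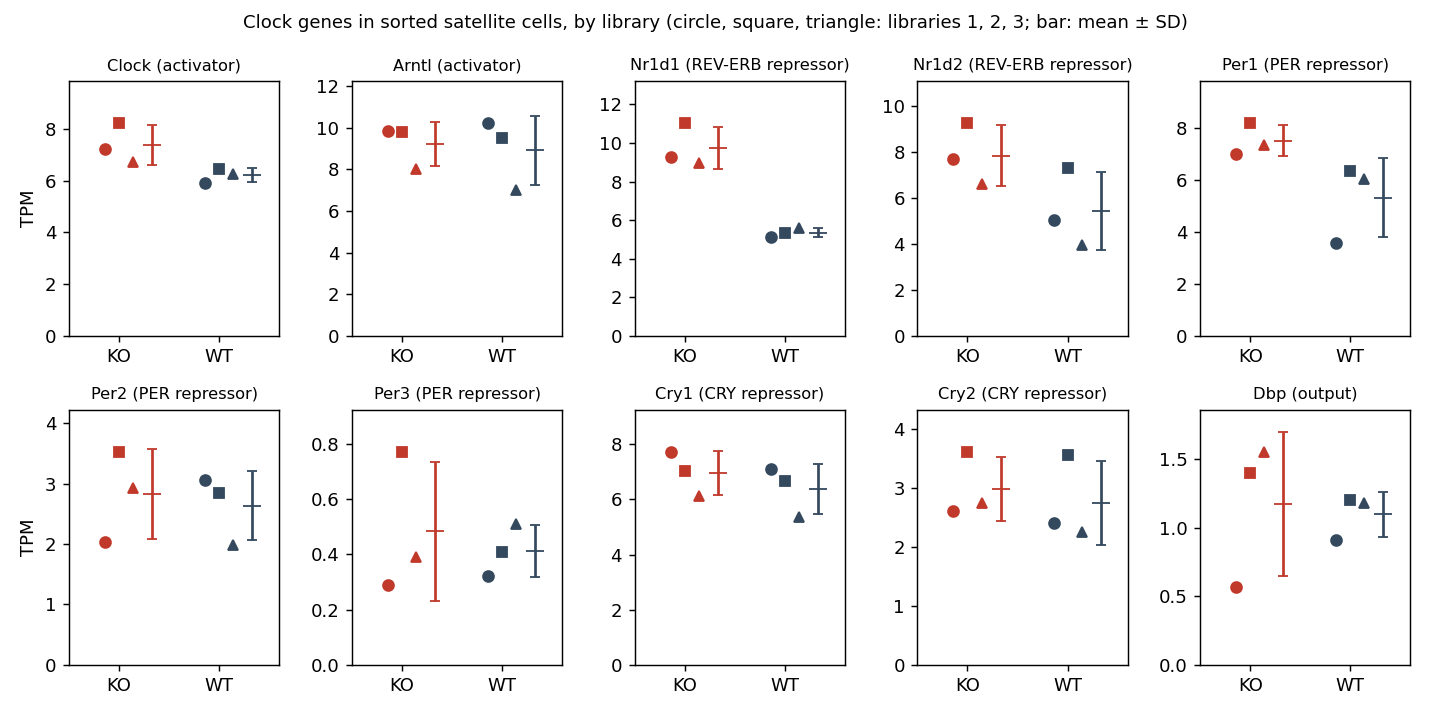
Level (TPM, linear axis from 0) of each of the 10 clock genes in the 3 KO and 3 WT libraries, with the mean and SD of each group beside the points. The KO libraries of Nr1d1 sit between 8.95 and 11.01 TPM, above all WT libraries at 5.14 to 5.57 TPM, while for 7 of the 10 genes the groups overlap.

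Per1 encodes a PERIOD repressor that is also induced within the hour by glucocorticoids and by cAMP signals. The gene lies on chromosome 11 at 69095217 to 69109960 (plus strand). Its window is shown because it is the one among these genes that holds both an E-box (CACGTG, 166 bases before the start site) and a D-box (TTATGCAA, 24 bases before it), both in capitals, in the 250 bases at chr11:69098699-69098948 (GRCm38.p6, plus strand).
Per1: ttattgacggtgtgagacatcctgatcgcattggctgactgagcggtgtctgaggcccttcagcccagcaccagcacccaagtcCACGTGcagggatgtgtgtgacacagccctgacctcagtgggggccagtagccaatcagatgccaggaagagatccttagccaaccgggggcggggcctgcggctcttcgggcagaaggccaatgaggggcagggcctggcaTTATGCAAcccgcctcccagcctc

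Per1 held 7.01, 8.19 and 7.37 TPM in KO libraries and 3.58, 6.34 and 6.06 TPM in WT libraries. Every KO library lay above every WT library, and WT library 1 stood well below the other WT libraries. The means were 7.52 ± 0.605 TPM in KO and 5.33 ± 1.52 TPM in WT (SD, n = 3 each), with a log2 difference of 0.46 (SE 0.19). Without WT library 1 the difference was 0.24. After median-of-ratios scaling the lowest KO level was 7.05 and the highest WT level 6.85, so the groups came close to touching.

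The other PERIOD genes did not separate the groups. Per2 (chromosome 1, 91415982 to 91459324, minus strand), a core repressor, held 2.04, 3.52 and 2.93 TPM in KO and 3.07, 2.85 and 1.99 TPM in WT. Its log2 difference was 0.07 (SE 0.18), and it was -0.04 after median-of-ratios scaling. Per3 (chromosome 4, 151003652 to 151044665, minus strand), whose loss in mice has mild effects on the clock, was the lowest of the 10 at 0.29, 0.77 and 0.39 TPM in KO and 0.32, 0.41 and 0.51 TPM in WT. At that level its order among libraries cannot be read, and it was not tested. The ratio of Per1 to Per2 was 3.44, 2.33 and 2.52 in KO and 1.17, 2.22 and 3.05 in WT, and overlapped.

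Cry1 and Cry2 encode the cryptochromes, the stronger inhibitors of CLOCK and BMAL1. Cry1 (chromosome 10, 85131700 to 85185064, minus strand) held 7.71, 7.03 and 6.14 TPM in KO and 7.1, 6.68 and 5.35 TPM in WT, and Cry2 (chromosome 2, 92403646 to 92434043, minus strand) held 2.61, 3.61 and 2.75 TPM in KO and 2.41, 3.57 and 2.26 TPM in WT. The groups overlapped for both, and the cryptochromes ranked the libraries differently, with KO library 1 highest for Cry1 and KO library 2 highest for Cry2. The log2 differences were 0.11 (SE 0.15) for Cry1 and 0.10 (SE 0.17) for Cry2, near the median of all genes, and -0.02 and -0.01 after scaling. The ratio of Cry1 to Cry2 was 2.38 ± 0.519 in KO and 2.39 ± 0.538 in WT (SD, n = 3 each). Cry2 shares 295 of 6320 exonic bases with the antisense transcript D930015M05Rik, which held at most 1.14 TPM in KO and 1.03 TPM in WT.

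The activators were among the most abundant of the 10. Arntl (chromosome 7, 113207465 to 113314126, plus strand), which encodes BMAL1 and is the direct target that REV-ERB proteins repress, held 9.85, 9.8 and 7.99 TPM in KO and 10.2, 9.5 and 7.01 TPM in WT. The groups overlapped over most of their range, KO library 3 and WT library 3 were the lowest, and the log2 difference was 0.05 (SE 0.17), or -0.08 after scaling. Clock (chromosome 5, 76209868 to 76304792, minus strand), the partner of BMAL1, held 7.22, 8.22 and 6.72 TPM in KO and 5.93, 6.45 and 6.28 TPM in WT. Its groups did not overlap, by a margin of 6.72 against 6.45 TPM, and the log2 difference was 0.21 (SE 0.13). After median-of-ratios scaling the Clock groups overlapped and the difference was 0.08, and without KO library 2 it was 0.14.

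Dbp (chromosome 7, 45705088 to 45710203, plus strand), a PAR bZIP factor that binds D-boxes and is a direct output of CLOCK and BMAL1, was low in all libraries. It held 0.57, 1.4 and 1.55 TPM in KO and 0.91, 1.2 and 1.18 TPM in WT. KO library 1 held the lowest and KO library 3 the highest of the 6 values, so the KO libraries spanned the WT range on both sides. The log2 difference was 0.02 (SE 0.19), and it was 0.24 without KO library 1 and -0.11 without KO library 3. Dbp shares 539 of its 2993 exonic bases with Sphk2 on the opposite strand, which held 0.77, 1.14 and 1.13 TPM in KO and 0.6, 1.08 and 0.81 TPM in WT.

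Taken as a list, 9 of the 9 clock genes that passed the filter had a higher mean in KO, as did 77.6% of all genes tested, with a median log2 difference of 0.11 against 0.12 over all genes tested. After median-of-ratios scaling 4 of the 9 did, namely Nr1d1, Nr1d2, Per1 and Clock, with a median of -0.01 against 0.01 over all genes. With limma and Benjamini-Hochberg adjusted p-values, 0 of the 9 passed the threshold of 0.05, where 0.0557% of all genes did. At an unadjusted limma p under 0.05 there were 3 members higher, Nr1d1, Nr1d2 and Per1, and 0 lower, where 7.89% of all genes were higher and 2.66% lower. After median-of-ratios scaling the count of members was 1, as it was after quantile normalization, and the split over all genes, 708 higher and 239 lower, became 355 higher and 435 lower. Every KO library lay above every WT library for 3 members, Nr1d1, Per1 and Clock, as for 13.5% of all genes tested, and below for 0 members, as for 3.07% of all genes. These counts are given as a description, because the genes were proposed with this contrast known.

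**Figure D2:**
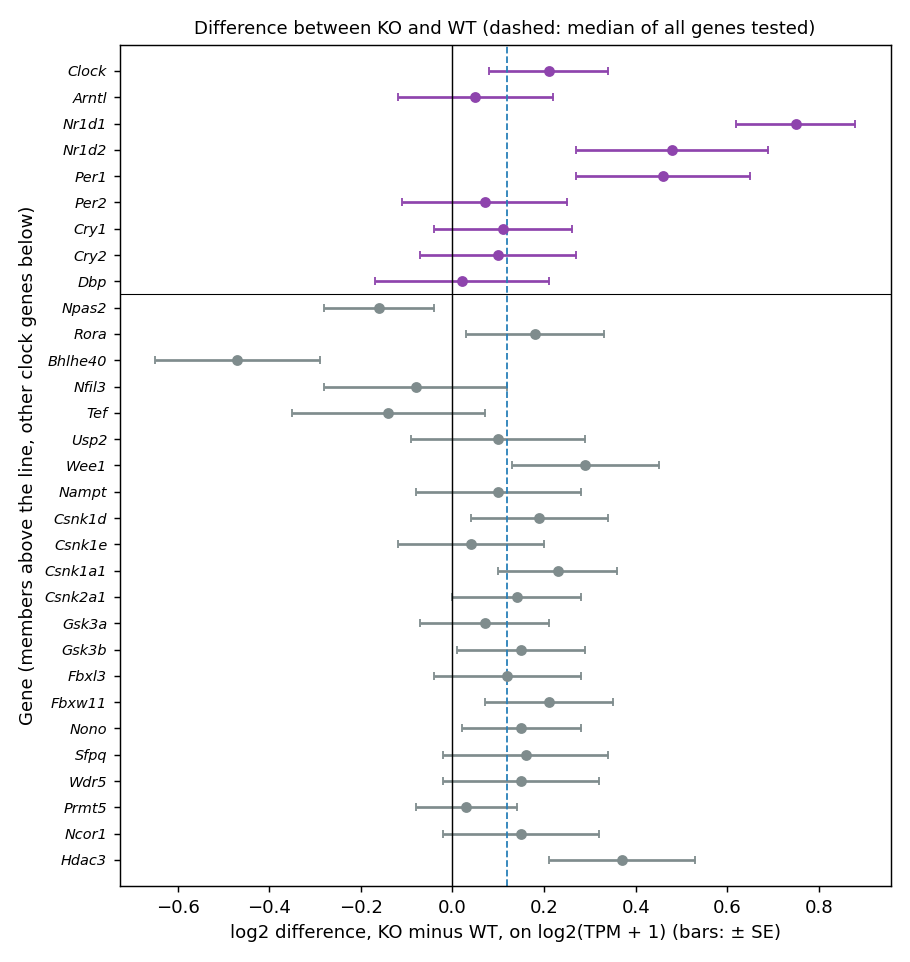
Log2 difference, KO minus WT, on log2(TPM + 1) with its SE for the 9 tested clock genes (above the line) and the 22 tested other clock genes (below it); the dashed line marks the median of all genes tested, 0.12. Nr1d1 lies farthest to the right at 0.75 and Bhlhe40 farthest to the left at -0.47.

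By the mean of all 6 libraries, Arntl led at 9.06 TPM, followed by Nr1d1 at 7.55, Clock at 6.80, Cry1 at 6.67, Nr1d2 at 6.63 and Per1 at 6.42 TPM, then Cry2 at 2.87, Per2 at 2.73, Dbp at 1.14 and Per3 at 0.448 TPM. Every neighbouring pair in this order overlapped in its range over the 6 libraries except Per2, at 1.99 TPM or more, and Dbp, at 1.55 TPM or less. Per1 and Cry2 overlapped through 1 library, since Per1 held 3.58 TPM in WT library 1 and Cry2 held 3.61 TPM in KO library 2. Nr1d1 stood level with Arntl in KO, at 9.74 ± 1.11 and 9.21 ± 1.06 TPM (SD, n = 3), while in WT it stood below, at 5.35 ± 0.215 and 8.90 ± 1.68 TPM (SD, n = 3).

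Ratios within a library do not depend on the scaling between libraries. The ratio of Nr1d1 to Clock was 1.28, 1.34 and 1.33 in KO and 0.87, 0.83 and 0.89 in WT, and the ratio of Nr1d1 to Arntl was 0.94, 1.12 and 1.12 in KO and 0.50, 0.56 and 0.79 in WT. For both ratios the KO and WT libraries did not overlap, with KO above. The ratio to Clock varied little within a group, at 1.32 ± 0.0301 in KO and 0.86 ± 0.0292 in WT (SD, n = 3 each). The ratio to Per2 was 4.54, 3.13 and 3.05 in KO and 1.67, 1.88 and 2.80 in WT, again without overlap. These ratios share Nr1d1 and its choice, and are no independent observation.

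**Figure D3:**
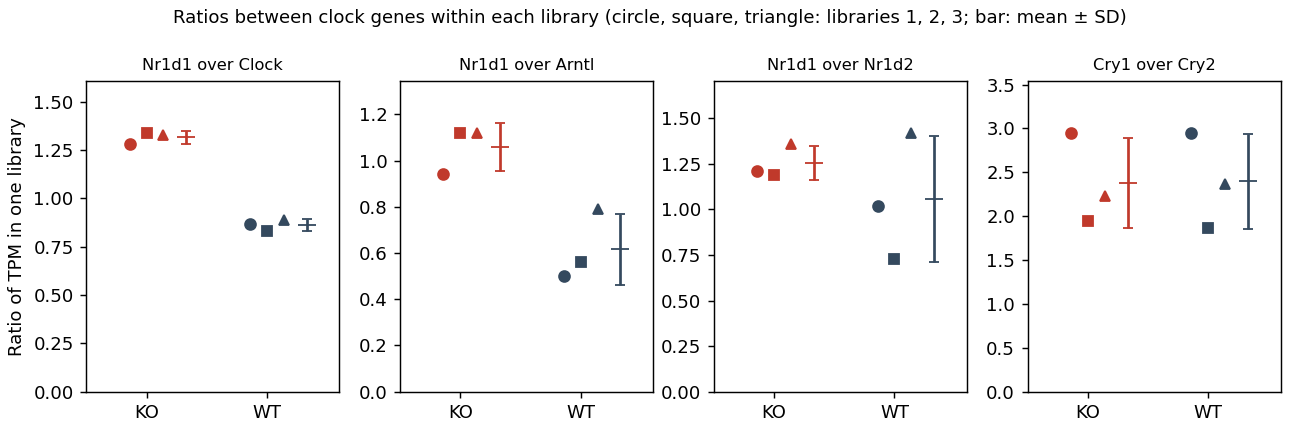
Ratios of TPM between clock genes within each library (axis from 0; points are libraries, bars are mean and SD of the 3 libraries of a group). Nr1d1 over Clock lies at 1.28 to 1.34 in KO and 0.83 to 0.89 in WT, while Cry1 over Cry2 has nearly the same values in both groups.

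Between libraries, KO library 2 held the highest value of 6 of the 9 genes that passed the filter and WT library 3 the lowest value of 5. KO library 2 also stood highest for the median gene of the table, 0.136 above the 6-library mean on the log2 scale, and WT library 3 lowest, at -0.134. After median-of-ratios scaling KO library 2 was highest for 3 of the 9 and WT library 3 lowest for 2. The summed level of 10 immediate early genes, which cell isolation can induce, was 929, 1260 and 911 TPM in KO and 889, 1290 and 944 TPM in WT, so KO library 2 and WT library 2 held the highest sums, as they did the highest Cry2 and Nr1d2 within their groups. Their part in the clock gene values was not tested. In the ratio of Cry1 to Cry2, at 2.95, 1.95 and 2.23 in KO and 2.95, 1.87 and 2.37 in WT, a KO and a WT library of the same number lay close together. In the immediate early sums this held for library 2 only. There KO library 1 lay nearest to WT library 3, and KO library 3 nearest to WT library 1. The numbers follow accession order and the labels tie no KO library to a WT library, so they were not used as pairs, and a shared collection day was not tested. Egr1, Fosb and Fos, the most abundant of these, had log2 differences of 0.06, -0.04 and -0.04 between KO and WT (limma adjusted p from 0.91 to 0.953). The 10 glucocorticoid-responsive genes summed to 614, 676 and 483 TPM in KO and 705, 795 and 551 TPM in WT, a sum carried mostly by Errfi1, Mt2 and Mt1. Of that list's less abundant genes, Fkbp5, Zbtb16 and Dusp1 were lowest of all 6 libraries in WT library 1, as Per1 was. They are named after their values were seen. The rest of the list was lowest elsewhere, with Sgk1, Klf9, Errfi1 and Mt2 lowest in KO library 3. Cebpd and Mt1 were lowest in WT library 3, and Tsc22d3 in KO library 1. Fkbp5 held 2.12, 3.92 and 2.28 TPM in KO and 1.31, 3.46 and 1.73 TPM in WT. The part of these 10 genes in the Per1 values was not tested. Errfi1, Mt2 and Mt1 had log2 differences of -0.36, -0.29 and -0.18 (limma adjusted p from 0.532 to 0.779).

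**Figure D4:**
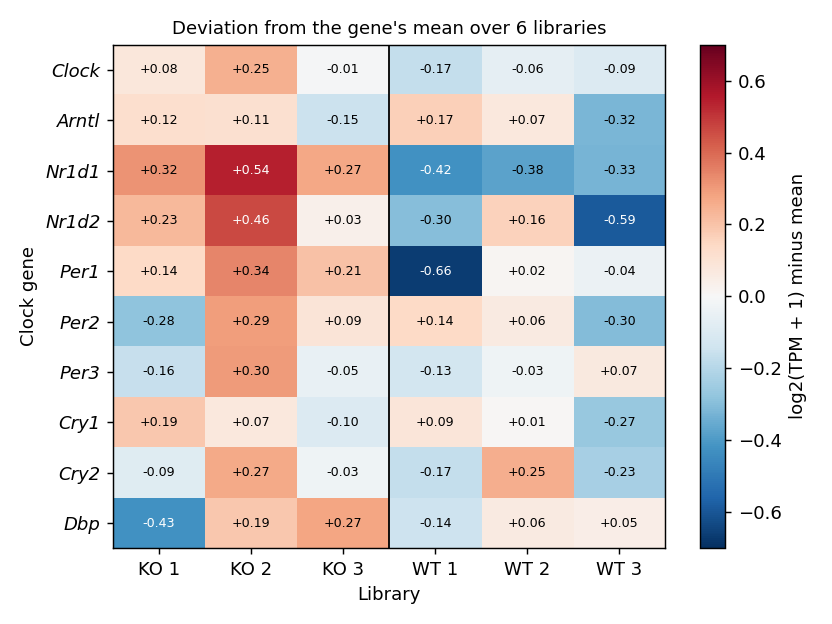
Deviation of each library (columns, KO left of WT) from the gene's own mean over the 6 libraries, in log2(TPM + 1), for the 10 clock genes (rows). In the Nr1d1 row all KO cells are positive and all WT cells negative, and the KO 2 column is positive throughout.

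Promoter windows of RefSeq, 250 bases before to 50 after a start site (GRCm38.p6), were matched by symbol for 9 of the 10 genes. These were 13 windows in all, some of which overlap. Per2 had no window and was not searched. Exact words were searched on both strands, and no match of 1 motif overlapped a match of another. An E-box (CACGTG) was found in 2 of the 13 windows, of Cry1 and Per1, against 7.15% of 32851 windows of all genes. An E-prime box (CACGTT) was found in 3 of the 13, of Cry1, Cry2 and Nr1d1, against 4.68%. A D-box (TTATGTAA, TTACGTAA or TTATGCAA) was found in 2 of the 13, of Per1 and, at 2 places, of Per3, against 1.78%. A site for REV-ERB and ROR receptors (TAGGTCA or TGGGTCA) was found in 1 of the 13, of Arntl, against 6.45%. It lay 31 bases into the transcript from the second start site of Arntl. The full cAMP element (TGACGTCA, 1.79% of all windows), the estrogen response element (GGTCA, any 3 bases, then TGACC, 0.07%) and the glucocorticoid response element (GNACA, any 3 bases, then TGTNC, 0.475%) had no match in these windows. A match is a description of the letters and not a measured binding site. Stretches of 30 bases are shown for the matches of the feedback genes, with the motif in capitals.
Cry1 E-prime box, chr10:85185116-85185145, minus strand: acacacttcagaAACGTGaggtgccggtgg
Cry1 E-box, chr10:85185097-85185126, minus strand: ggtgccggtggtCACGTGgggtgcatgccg
Cry2 E-prime box, chr2:92434218-92434247, minus strand: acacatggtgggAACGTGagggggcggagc
Arntl REV-ERB and ROR site, chr7:113207529-113207558, plus strand: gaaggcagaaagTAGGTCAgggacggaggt
Per3 D-box, chr4:151044852-151044881, minus strand: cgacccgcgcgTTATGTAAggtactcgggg
Per3 D-box, chr4:151044805-151044834, minus strand: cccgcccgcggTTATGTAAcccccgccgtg

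Among the genes with a match, Nr1d1 and Per1 separated KO from WT, while Cry1, Cry2 and Arntl did not. Per3, which also had a match, was too low for its order among libraries to be read. Of the genes with windows but no match, Clock separated KO from WT in TPM but not after median-of-ratios scaling, while Nr1d2 and Dbp did not. Every KO library lay above every WT library for 13.5% of all genes tested. The matches were of different motifs, and a link between motif and separation was not tested.

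Of 32 other genes of the clock pathway, 22 were tested and 0 passed the adjusted threshold by limma in either direction, against 0.0557% of all genes. At an unadjusted limma p under 0.05 there was 1 higher, Hdac3, and 1 lower, Bhlhe40, against 7.89% and 2.66% of all genes. Their median log2 difference was 0.15 against 0.12 over all genes tested, and it was 0.01 after median-of-ratios scaling. A higher mean in KO was held by 18 and a lower by 4, where 77.6% of all genes were higher, and every KO library lay above every WT library for 1, Nono, and below for 0, against 13.5% and 3.07% of all genes. The list holds further activators, repressors and output factors of the clock, and the kinases and cofactors that act on PER, CRY and REV-ERB proteins.

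On the activator side, Rora, a receptor that competes with REV-ERB proteins at the same sites and activates Arntl, held 10.22, 14.13 and 10.13 TPM in KO and 9.49, 10.42 and 9.83 TPM in WT (limma log2 difference 0.18, SE 0.15, adjusted p = 0.688). Npas2, which can stand in for CLOCK, held 3.20, 3.58 and 3.10 TPM in KO and 3.93, 3.91 and 3.51 TPM in WT (limma log2 difference -0.16, SE 0.12, adjusted p = 0.65). Both overlapped between groups. Arntl2, a paralog of Arntl, was below the filter and untested, and is named after its values were seen. It was listed at 0.15, 0.15 and 0.18 TPM in KO and 0.47, 0.50 and 0.46 TPM in WT, lower in every KO library at levels under 1 TPM.

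On the repressor side, Bhlhe40, an E-box binding repressor also called DEC1, held 8.87, 13.60 and 9.38 TPM in KO and 16.08, 13.02 and 15.60 TPM in WT. KO library 2 lay above WT library 2, so the groups overlapped, and the log2 difference was -0.47 (SE 0.18; limma adjusted p = 0.395). Its means were 10.6 ± 2.60 TPM in KO and 14.9 ± 1.65 TPM in WT (SD, n = 3 each). Nfil3, a repressor at D-boxes, held 24.5 ± 5.07 TPM in KO and 25.9 ± 5.48 TPM in WT (SD, n = 3 each; limma adjusted p = 0.889).

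Output factors did not separate the groups. Wee1, a mitotic kinase under E-box control in mouse liver, held 1.87, 2.78 and 2.61 TPM in KO and 2.11, 1.37 and 1.89 TPM in WT (limma log2 difference 0.29, SE 0.16, adjusted p = 0.555). Tef, a PAR bZIP relative of Dbp, held 3.01 ± 1.17 TPM in KO and 3.32 ± 0.490 TPM in WT, and Nampt, the rate-limiting enzyme of NAD salvage, 3.90 ± 0.585 TPM in KO and 3.63 ± 1.03 TPM in WT (SD, n = 3 each; limma adjusted p = 0.804 and 0.846). Tef was lowest in KO library 1, at 1.92 TPM, as Dbp was.

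Of the kinases and ubiquitin ligases that set PER and CRY stability, 8 of 8 tested had a higher mean in KO, where 77.6% of all genes did, with a median log2 difference of 0.15 against 0.12 over all genes. Csnk1a1 and Csnk1d, casein kinase 1 isoforms, held 19.4 ± 1.31 and 19.1 ± 2.78 TPM in KO, against 16.3 ± 1.54 and 16.5 ± 1.15 TPM in WT, and Fbxw11, a substrate receptor for phosphorylated PER, held 5.88 ± 0.343 TPM in KO and 4.98 ± 0.820 TPM in WT (SD, n = 3 each; limma adjusted p from 0.578 to 0.656). Of the cofactors, 6 of 6 tested had a higher mean in KO, against the same 77.6%, with a median of 0.15. Hdac3, the deacetylase that the NCOR1 corepressor brings to REV-ERB proteins, held 2.03, 2.76 and 2.70 TPM in KO and 1.26, 1.82 and 2.07 TPM in WT (limma log2 difference 0.37, SE 0.16, adjusted p = 0.457). Ncor1 held 13.1 ± 2.23 TPM in KO and 11.7 ± 1.70 TPM in WT, and Nono, a binding partner of PER proteins, 22.9 ± 1.0 TPM in KO and 20.5 ± 1.34 TPM in WT (SD, n = 3 each; limma adjusted p = 0.745 and 0.681).

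The genes whose pattern over the 6 libraries was most like that of Nr1d1 were Cd47, Igsf3, Arf2, Copb2 and Timp2, with Pearson r from 0.9876 to 0.9926 on log2(TPM + 1); the 6 points fall into 2 groups and share their scaling. With the group means subtracted, r for the same genes was 0.82 to 0.95. Cd47, a cell surface signal that restrains phagocytosis, held 5.6, 6.41 and 5.73 TPM in KO and 4.42, 4.54 and 4.58 TPM in WT. The most opposite were Nsa2, Rad18, Rplp1, Car12 and P2ry14, with r from -0.9853 to -0.9554. With the group means subtracted, r was -0.88 for Nsa2 and -0.79 for Rad18, and -0.35, -0.21 and -0.37 for Rplp1, Car12 and P2ry14. These genes are the extremes of 8971 over 6 points and were chosen by r, so their r carries no test. Of the other clock genes in the list, Clock was most like Nr1d1, with r = 0.90, or 0.94 with group means subtracted, and 222 genes ranked above it. Arntl had r = 0.16 with Nr1d1, so the 2 did not run opposite to each other over these libraries.

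The genes most like Arntl were Ccnyl1, Cbll1, Mir568, Mrps6 and Mir20a, with r from 0.9765 to 0.9879. Mrps6, a mitochondrial ribosomal protein gene, held 19.17, 18.95 and 10.98 TPM in KO and 18.65, 18.47 and 9.67 TPM in WT. KO library 3 and WT library 3 were the lowest for this gene as for Arntl. Cry1 had r = 0.94 with Arntl, or 0.97 with group means subtracted, and 23 genes ranked above it.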

How the data were processed

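The authors deposited TPM per gene symbol for 6 libraries. Tools listed in the submitters' processing notes, without role or order, are kallisto, Trimmomatic 0.33, CASAVA and FastQC, and the builds listed are mm10 and GRCm38. How transcripts were summed per gene was not stated. The deposited TPM add up to between 295306 and 334382 per library, 29.5% to 33.4% of the scale, so features outside the table can move all listed values together. TPM keeps no depth, and no counting interval can be given.

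Groups were taken from the labels; library numbers 1 to 3 follow accession order and were not used to pair libraries. The filter kept genes at or above 1 TPM in at least 3 of 6 libraries, and these were tested on log2(TPM + 1), computed from the deposited TPM, with limma 3.58.1 in R 4.3.3 (eBayes with a trend, two-sided, Benjamini-Hochberg over all genes tested, threshold 0.05). The procedure was run on simulated data with independent noise for each gene and library. Those data held no shift of whole libraries, so the run cannot tell how such shifts affect the calls. Log2 differences on this scale understate changes of low genes. Of the genes tested 17 had values identical to another gene, and 0 of these are in the lists used.

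The members, the lists and the tests were chosen with earlier results of these data known. Named were all members, up to 3 genes of each group of other clock genes with the smallest p, the 5 genes most like Nr1d1 and Arntl and most opposite to Nr1d1 by Pearson r (leaving out members, Gm-numbered genes and Rik symbols), and the 3 most abundant of the immediate early and glucocorticoid lists. Thra and Sphk2 were named for shared exonic bases. Coordinates are GENCODE vM21 (GRCm38), matched by symbol; promoter sequences are RefSeq's (GRCm38.p6). The alternatives tried were pseudocounts of 0.1 and 5, other filters, 3 scalings, eBayes without a trend and leaving out each library. Figures were drawn with matplotlib 3.10.9.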

Additional observations from a re-analysis of the deposited data

How the results depend on the processing

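Nr1d1 kept a higher mean in KO under all 14 alternatives, with log2 differences from 0.51 (pseudocount 5) to 0.91 (protein-coding genes rescaled), and Nr1d2, Per1 and Clock did so under the same 14. Without any single library the count of clock genes with a higher mean was 6 to 9, and it was 4 after scaling by median of ratios and 4 after quantile normalization. The median log2 difference over all genes moved too. It was 0.08 to 0.18 without any single library, 0.01 after scaling by median of ratios and 0.0 after quantile normalization. With protein-coding genes rescaled 1 clock gene, Nr1d1, passed the threshold by limma. Esr1 passed there at a log2 difference of -0.96 (limma adjusted p = 0.0361, range over the alternatives 0.0361 to 0.319). In that setting 38 of 8157 genes passed higher and 48 lower, and the median over all genes was 0.22. The pass of Nr1d1 is a description, because the genes were proposed with this contrast known. Under the other 13 alternatives 0 clock genes passed, with 1 to 3 at an unadjusted limma p under 0.05. Over all genes 355 to 1202 were higher and 197 to 436 lower at that p in those 13. Of the other clock genes 0 passed by limma under any alternative, with 0 to 5 at an unadjusted p under 0.05, 0 of them without KO library 3 or without WT library 1. The count of 5 came with protein-coding genes rescaled, where 1554 genes were higher and 191 lower at that p.

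Over all genes, calls higher in KO numbered 3 and calls lower 2 by limma. Leaving out 1 library gave 0 to 4 higher and 0 to 2 lower, with 0 in both directions without KO library 3 (474 and 203 at an unadjusted p under 0.05) and 0 lower without KO library 1 or 2 (230 and 245); it was 1 higher without WT library 1 and 1 lower without WT library 3. Calls higher were 0 at a pseudocount of 0.1 (728 at an unadjusted p under 0.05), and calls lower 0 at a pseudocount of 5 (231). With no filter they were 0 and 0 (1198 and 374), with a filter on mean TPM 0 and 0 (723 and 243), under quantile normalization 1 and 0 (369 and 436), under median-of-ratios scaling 1 higher, and with protein-coding genes rescaled 38 and 48. The cause was not tested. No paired analysis was possible because the numbers in the labels differ between all 6 libraries. TPM carries no depth, so for Per3, Dbp and the genes under 1 TPM the precision of single values is unknown.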
